A study of Homo sapiens with 16 samples.

Results

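The genes described here are 10 transcripts that report on signalling through the MAP kinases ERK1 and ERK2, among them genes whose products restrain it. They were chosen by symbol, *DUSP4*, *DUSP5*, *DUSP6*, *SPRY2*, *SPRY4*, *SPRED1*, *SPRED2*, *ETV4*, *ETV5* and *PHLDA1*, and all 10 were found among the 25369 genes of the count table. All 10 passed the filter on low counts in both cell lines, with at least 67 reads per gene in every library. Their levels were followed across 4 treatments in 2 human papillary thyroid carcinoma lines, TPC1 and K1.

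Every group was treated for 24 hours: TPC1 or K1 cells received 0.2% DMSO as the vehicle, 10 µM nutlin-3a, 25 µM GSK2830371, or nutlin-3a and GSK2830371 together at those doses. Nutlin-3a releases p53 from its repressor MDM2, and GSK2830371 inhibits the phosphatase PPM1D, a second repressor of p53. Both lines express wild type p53, and the study compared each drug alone with the pair. Each of the 8 groups holds 2 libraries of stranded polyadenylated RNA, so that n = 2 wherever a group is given. TPC1 carries a fusion of *CCDC6* to *RET* and K1 an activating mutation of *BRAF*, each of which drives the MAPK pathway, but each lesion is represented by 1 line and the lines were grown in different media (RPMI for TPC1, DMEM for K1), so lesion, line and medium cannot be told apart.

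In the MAPK pathway, growth factor receptors load RAS with GTP, RAS recruits RAF kinases, RAF phosphorylates MEK, and MEK phosphorylates ERK. Active ERK enters the nucleus and turns on genes that encode its own inhibitors, a negative feedback that makes their transcript levels a common readout of ERK output. The dual specificity phosphatases DUSP4, DUSP5 and DUSP6 remove the activating phosphates from ERK, DUSP6 in the cytoplasm and DUSP4 and DUSP5 in the nucleus. SPRY2 and SPRY4 (Sprouty proteins) and SPRED1 and SPRED2 act upstream, where they limit the activation of RAS and RAF. ETV4 and ETV5 are ETS family transcription factors that carry the ERK signal to other genes, and PHLDA1 is a pleckstrin homology domain protein induced by ERK and other signals. In papillary thyroid carcinoma, where RET fusions and BRAF mutations are common drivers, such genes are used to score pathway output.

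Genes that differ by line or answer to p53 were read first, as a check of the labels. *RET* stood at 42.1 to 49.4 CPM in the TPC1 libraries and at 0.197 to 0.676 CPM in K1, where CPM is the read count scaled to a common library size, with TMM factors over all 16 libraries. The other fusion partner, *CCDC6*, was at 2.79 to 4.61 CPM in TPC1 and 85.0 to 97.4 CPM in K1. The p53 target *CDKN1A* rose by 5.61 ± 0.14 on the log2 scale with nutlin in TPC1 and by 3.16 ± 0.061 in K1, where ± is the standard error of a log2 fold change. With GSK2830371 alone it rose by 1.01 ± 0.058 in K1, whereas in TPC1 it was at 0.28 ± 0.12 and not called (adjusted p = 0.22). Library totals ran from 30789887 to 76648552 counts in TPC1 and from 28888686 to 37161241 in K1. Of the 7 thyroid follicular markers examined, 3 exceeded 1 CPM in at least 1 library of TPC1, and 3 in K1. *PAX8* and *FOXE1* were present in both lines, whereas *TSHR* had 0 reads in every library and *NKX2-1* had 0 reads in TPC1 and at most 10 in K1. Of 5 epithelial markers only *KRT8* and *KRT18* exceeded 1 CPM in either line, and *CDH1* had at most 2 reads. Of 4 fibroblast and mesenchymal markers 3 exceeded 1 CPM in each line. *VIM* was high in both, with at least 68586 reads. In contrast, *PDGFRB* reached at most 14.0 CPM, *COL1A1* at most 5.10 CPM and *COL3A1* at most 1 read. Of 5 leukocyte markers 0 exceeded 1 CPM in TPC1 and 1 in K1, *CD14*, at 2.24 to 4.55 CPM, while *PTPRC* had at most 2 reads in any library. The 5 summed to 0.051 to 0.42 CPM in TPC1 and 2.48 to 4.58 CPM in K1, and their part in the differences between the lines was not tested. The 3 endothelial markers together stayed under 1 CPM in both lines.

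**Figure D1:**
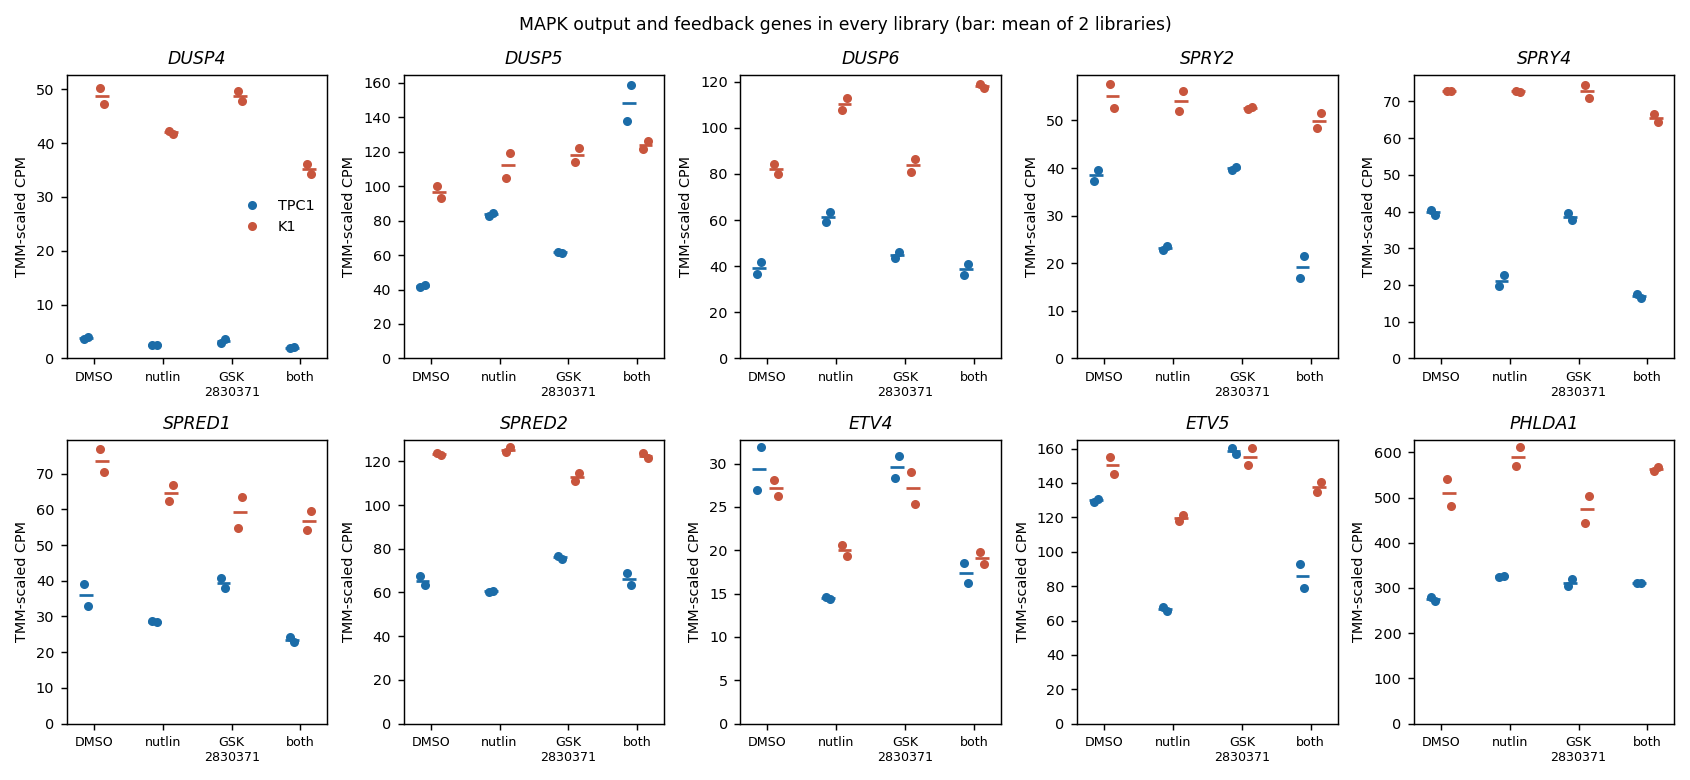
TMM-scaled CPM (vertical axis, from 0) of each of the 10 genes in every library, by treatment (horizontal axis), in TPC1 (blue) and K1 (red). Points are single libraries and bars the mean of 2. In TPC1 *DUSP5* climbs from 41.7 and 42.7 CPM under DMSO to 138 and 159 under both drugs, while *SPRY4* drops from 40.4 and 39.1 to 17.7 and 16.4.

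Under DMSO, 9 of the 10 genes had a higher mean in K1 than in TPC1, and 7 of them were raised in K1. A gene is called raised or lowered when its p from the quasi-likelihood test of edgeR, adjusted by Benjamini-Hochberg over all genes tested, is under 0.05 and its fold change exceeds 1.5. Against these 7 of 10 stands a background of 25% of all 16738 genes raised in K1. The median log2 difference of the 10 genes was 0.90, beside 0.018 over all genes. In bulk RNA such a difference can reflect fewer expressing cells or less RNA per cell, which cannot be told apart.

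*DUSP4*, which encodes a nuclear ERK phosphatase, separated the lines most widely. It was at 3.67 and 3.93 CPM in the TPC1 DMSO libraries and at 50.3 and 47.2 CPM in those of K1. The K1 level was 12.7-fold that of TPC1, with a log2 difference of 3.67 ± 0.10 (adjusted p = 1.7e-14). Over all treatments *DUSP4* stayed between 1.88 and 3.93 CPM in TPC1 and between 34.2 and 50.3 CPM in K1. The second nuclear ERK phosphatase gene, *DUSP5* (chromosome 10, 112257665 to 112271291 in GRCh37), was at 41.7 and 42.7 CPM in TPC1 and 100 and 93.0 CPM in K1, a log2 difference of 1.19 ± 0.084 (adjusted p = 1.9e-09). For the cytoplasmic *DUSP6* (chromosome 12, 89741012 to 89746278) the DMSO libraries held 36.7 and 41.8 CPM in TPC1 and 84.5 and 79.8 CPM in K1, a difference of 1.06 ± 0.083 (adjusted p = 7.6e-09). All 3 phosphatase genes thus stood higher in both K1 libraries than in both TPC1 libraries.

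Among the inhibitors upstream of RAF, *SPRED1* (chromosome 15, 38545037 to 38649450) was at 39.0 and 32.9 CPM in TPC1 and at 76.7 and 70.3 CPM in K1. *SPRED2* (chromosome 2, 65537985 to 65659771) was at 67.4 and 63.5 CPM in TPC1 and 124 and 123 CPM in K1. Their log2 differences were 1.04 ± 0.096 and 0.92 ± 0.065. *SPRY4* (chromosome 5, 141689992 to 141706020) was at 40.4 and 39.1 CPM in TPC1 and 72.7 and 72.8 CPM in K1, a difference of 0.87 ± 0.077. *SPRY2* (chromosome 13, 80910111 to 80915261) was at 37.3 and 39.6 CPM in TPC1 and 57.6 and 52.6 CPM in K1. It passed the adjusted p (0.00014) but at 1.43-fold stayed under the fold threshold, and was called, at 0.62 on the log2 scale, with the GC and length correction and the replicate block.

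The ETS factor genes differed less between the lines than the feedback inhibitors, by their estimates. *ETV4* (chromosome 17, 41605212 to 41656988) had 27.0 and 31.9 CPM in TPC1 and 28.1 and 26.2 CPM in K1, which overlap, and the 95% interval of the log2 difference ran from −0.33 to 0.089. *ETV5* (chromosome 3, 185764103 to 185828107) was at 129 and 131 CPM in TPC1 and 155 and 145 CPM in K1, a difference of 0.21 with an interval of 0.045 to 0.37. It passed the adjusted p (0.025), higher in K1 like the inhibitors, but stayed under the fold threshold. *PHLDA1* (chromosome 12, 76419227 to 76425556) was at 281 and 272 CPM in TPC1 and 540 and 481 CPM in K1, and was raised in K1 by 0.89 ± 0.079.

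Between genes, levels were compared as CPM per kilobase of the canonical transcript. *PHLDA1* led in both lines under DMSO, with 46.7 ± 1.01 CPM per kilobase in TPC1 and 86.3 ± 7.07 in K1 (SD, n = 2), and *DUSP4* came last, with 0.685 ± 0.033 and 8.78 ± 0.39. In TPC1 *ETV5* came second with 31.8 CPM per kilobase, then *DUSP5* with 17.0 and *SPRY2* with 16.8, and the library ranges of *DUSP5* and *SPRY2* overlapped. *SPRED2* (14.5), *ETV4* (12.6), *DUSP6* (10.8), *SPRY4* (8.11) and *SPRED1* (4.94) followed, each with a library range apart from its neighbours. In K1 *DUSP5* came second with 39.0 CPM per kilobase, and its libraries overlapped those of *ETV5* (36.8). *SPRED2* (27.3), *SPRY2* (24.1), *DUSP6* (22.6), *SPRY4* (14.8), *ETV4* (11.6) and *SPRED1* (10.1) followed in K1, where only *SPRY2* and *DUSP6* among these neighbours overlapped.

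**Figure D2:**
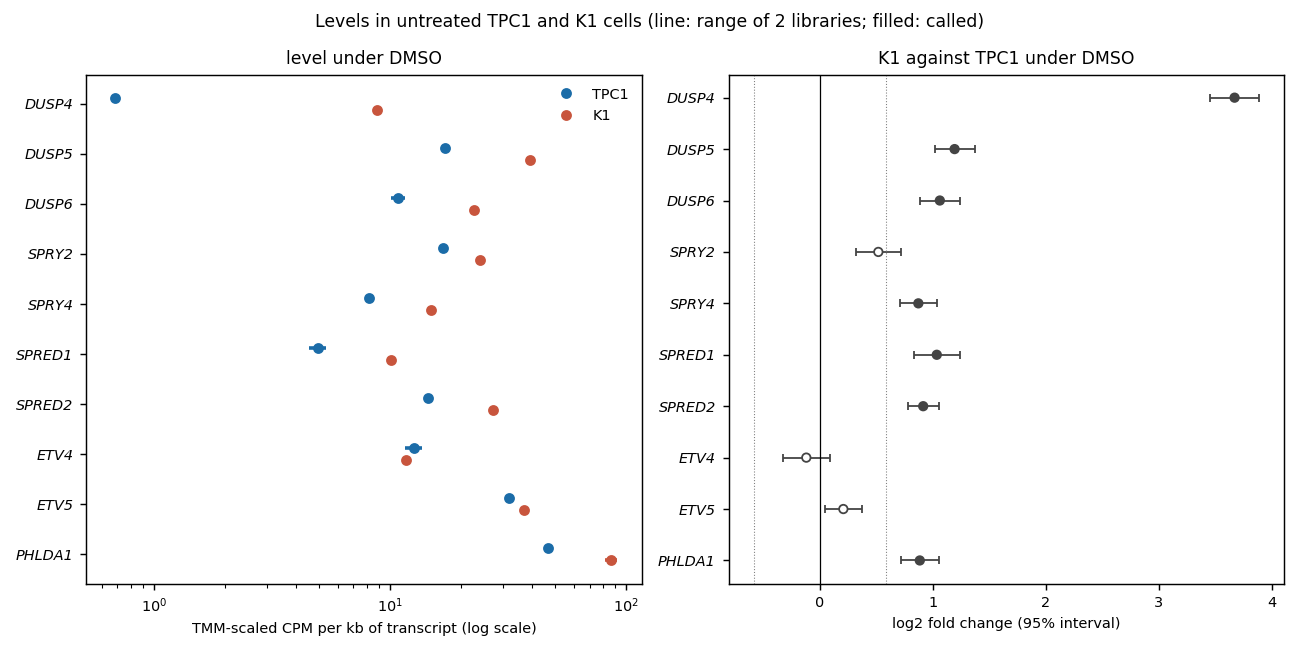
Left, level of each gene under DMSO in TPC1 (blue) and K1 (red), in TMM-scaled CPM per kilobase of transcript on a log axis, with points at the mean and lines spanning 2 libraries. Right, log2 difference of K1 from TPC1 with its 95% interval, filled where called and dotted at 1.5-fold. *DUSP4* lies farthest right at 3.67, and *ETV4* alone has a negative estimate, −0.12.

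Nutlin alone moved most of these genes in TPC1, more of them down than up. It raised 2 of the 10, *DUSP5* and *DUSP6*, and lowered 5, *DUSP4*, *SPRY2*, *SPRY4*, *ETV4* and *ETV5*. Over all 15273 genes tested in TPC1 it raised 17.5% and lowered 18%, so that the raised share of the 10 lay near the background. The median log2 fold change of the 10 genes was −0.52, against −0.0018 over all genes. All comparisons with DMSO in a line use the same pair of DMSO libraries, so their values are not independent.

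*DUSP5* rose in TPC1 from 41.7 and 42.7 CPM under DMSO to 83.0 and 84.8 CPM under nutlin, a log2 fold change of 0.96 ± 0.085 (adjusted p = 1.4e-05). A pseudogene copy, *DUSP5P1*, took 4 to 19 reads per library. *DUSP6* stood at 59.2 and 63.5 CPM under nutlin against 36.7 and 41.8 CPM under DMSO, and rose by 0.61 ± 0.090 (adjusted p = 0.00036). Its fold change of 1.53 lies close to the threshold, and its call was lost without DMSO replicate 1 (0.54) or nutlin replicate 3 (0.57) and with scaling by library size alone (0.58), with the adjusted p still under 0.05. *DUSP4* went the other way, from 3.67 and 3.93 CPM to 2.50 and 2.39 CPM, and fell by 0.68 ± 0.17 on the log2 scale (adjusted p = 0.0067). That call was lost without nutlin replicate 3 (−0.64, adjusted p = 0.057). The 3 ERK phosphatase genes thus split, with both nutlin libraries above both DMSO libraries for *DUSP5* and *DUSP6* and below them for *DUSP4*.

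Both Sprouty genes fell with nutlin in TPC1. *SPRY2* dropped from 37.3 and 39.6 CPM to 22.7 and 23.5 CPM, with a log2 fold change of −0.77 ± 0.11 (adjusted p = 0.00024). *SPRY4* dropped from 40.4 and 39.1 CPM to 19.6 and 22.6 CPM, with −0.94 ± 0.095 (adjusted p = 3.1e-05). For *SPRED1* the nutlin libraries held 28.7 and 28.4 CPM against 39.0 and 32.9 CPM, a log2 fold change of −0.37 ± 0.11 that passed the adjusted p (0.016) but not the fold threshold. *SPRED2* had 60.2 and 60.8 CPM against 67.4 and 63.5 CPM, with a 95% interval of −0.34 to 0.039.

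The ETS factor genes fell together, with the largest decreases of the 10 by their estimates. *ETV4* went from 27.0 and 31.9 CPM to 14.7 and 14.4 CPM, a log2 fold change of −1.05 ± 0.10 (adjusted p = 2.2e-05). *ETV5* went from 129 and 131 CPM to 67.7 and 65.7 CPM, with −0.999 ± 0.093 (adjusted p = 1.8e-05). *PHLDA1* stood at 324 and 327 CPM against 281 and 272 CPM, which is 1.15-fold and under the fold threshold (adjusted p = 0.035).

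Since the Sprouty genes fell while *DUSP6* rose and *PHLDA1* stayed within 1.5-fold, the sequences before their transcription starts are shown. They are the 250 bases upstream of the annotated start in RefSeq on GRCh38.p14, read on the minus strand, 5′ to 3′, a build other than the GRCh37 to which the reads were aligned. The table of promoters holds 6 of the 10 genes with 9 starts, and it has no entry for *DUSP4*, *DUSP5*, *ETV4* or *ETV5*. Of the 3 *SPRY2* starts, the one farthest upstream is shown. Capitals mark CCGGAA, the core bound by many ETS factors, on either strand.
SPRY2 (chr13:80341127-80341376): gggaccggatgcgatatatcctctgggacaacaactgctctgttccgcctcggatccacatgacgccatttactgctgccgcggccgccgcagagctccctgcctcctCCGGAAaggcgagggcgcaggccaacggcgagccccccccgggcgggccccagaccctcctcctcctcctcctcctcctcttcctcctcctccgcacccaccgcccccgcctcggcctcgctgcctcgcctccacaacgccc
SPRY4 (chr5:142324248-142324497): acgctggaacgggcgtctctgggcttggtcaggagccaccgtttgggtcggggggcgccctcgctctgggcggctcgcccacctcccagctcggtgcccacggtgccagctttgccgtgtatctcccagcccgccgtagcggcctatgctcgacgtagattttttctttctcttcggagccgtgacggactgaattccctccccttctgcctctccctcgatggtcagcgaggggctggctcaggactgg
DUSP6 (chr12:89352502-89352751): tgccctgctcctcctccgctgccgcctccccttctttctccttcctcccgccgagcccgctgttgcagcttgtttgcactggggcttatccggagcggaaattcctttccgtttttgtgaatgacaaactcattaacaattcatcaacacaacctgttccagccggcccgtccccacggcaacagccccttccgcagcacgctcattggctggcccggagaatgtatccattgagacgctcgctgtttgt
PHLDA1 (chr12:76031777-76032026): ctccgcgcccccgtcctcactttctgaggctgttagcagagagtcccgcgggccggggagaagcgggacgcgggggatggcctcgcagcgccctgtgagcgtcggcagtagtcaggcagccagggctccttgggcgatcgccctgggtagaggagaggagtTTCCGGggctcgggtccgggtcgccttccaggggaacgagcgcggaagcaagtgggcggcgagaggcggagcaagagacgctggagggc

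The ETS core occurred in 2 of the 9 upstream stretches, beginning 142 bases before the start of *SPRY2* and 89 bases before that of *PHLDA1*, there on the opposite strand. It occurred in 14.5% of all 35116 upstream stretches of the same length, searched on both strands. The AP-1 motif TGANTCA (6.57% of all stretches), the CRE TGACGTCA (1.65%), the CArG box (1.16%) and a p53 half-site (5.57%) had no match in the 9. None of the motifs searched was thus found in both Sprouty stretches shown.

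In K1, nutlin left all 10 genes within 1.5-fold of DMSO, and 0 were called by edgeR's quasi-likelihood test or by DESeq2. Of all 15900 genes tested in K1, 9.27% were called in either direction. At an unadjusted p under 0.05, 3 of the 10 were above DMSO and 4 below. No share of all genes was taken at an unadjusted p, so such counts here and below have no background beside them. By the adjusted p alone 3 were above DMSO and 3 below, against 13.5% and 16.6% of all genes. The common dispersion between libraries was 0.0027 in K1 and 0.0083 in TPC1, so smaller differences can pass the adjusted p in K1.

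*DUSP6* stood at 108 and 113 CPM under nutlin in K1 against 84.5 and 79.8 CPM, or 1.35-fold (adjusted p = 6.3e-05), with a 95% interval of 0.31 to 0.55 on the log2 scale. *ETV4* had 20.7 and 19.4 CPM against 28.1 and 26.2 CPM, with a log2 fold change of −0.44 ± 0.084, and *ETV5* 118 and 121 CPM against 155 and 145 CPM, with −0.33 ± 0.057. In both genes the nutlin and DMSO libraries did not overlap. *DUSP4* (−0.22), *DUSP5* (0.22) and *PHLDA1* (0.21) also passed the adjusted p. The Sprouty genes stayed close to DMSO: *SPRY4* had 72.9 and 72.5 CPM against 72.7 and 72.8 CPM, with an interval of −0.12 to 0.12, and *SPRY2* had 52.0 and 56.2 CPM against 57.6 and 52.6 CPM, with −0.17 to 0.12. *SPRED1* (−0.19, adjusted p = 0.090) and *SPRED2* (0.024, adjusted p = 0.77) did not pass.

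The nutlin responses of the lines differed for 4 of the 10 genes, in a fit of all 16 libraries. K1 minus TPC1 was raised for 3, *SPRY4* (0.91 ± 0.11, adjusted p = 1.1e-05), *SPRY2* (0.71 ± 0.14, adjusted p = 0.00082) and *ETV5* (0.64 ± 0.11, adjusted p = 0.00032), and lowered for 1, *DUSP5* (−0.77 ± 0.12, adjusted p = 9.6e-05). The background was 8.73% of all genes with a raised and 10.5% with a lowered difference, so that the lowered share lay near it. For *ETV4* the difference was 0.58 ± 0.14 (adjusted p = 0.0053), just under the fold threshold. It was called with the replicate number as a block (0.59), also with the GC and length correction (0.59), with DESeq2's size factors or Wald test (0.60), with scaling by library size alone (0.64) and with filterByExpr (0.63). It was also called without DMSO replicate 1 (0.69) or nutlin replicate 1 (0.59) of TPC1, and without DMSO replicate 1 or nutlin replicate 2 of K1 (both 0.63). The call of *ETV5* was lost with the GC and length correction and the block (0.57, adjusted p = 1.8e-05). For *DUSP6* it was −0.22, with a 95% interval of −0.46 to 0.030. The p53 target *CDKN1A* itself rose less in K1 than in TPC1, by 2.48 ± 0.15 on the log2 scale, and *MDM2* by 1.95 ± 0.12, and the part of that difference in the values of the 10 genes was not tested.

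**Figure D3:**
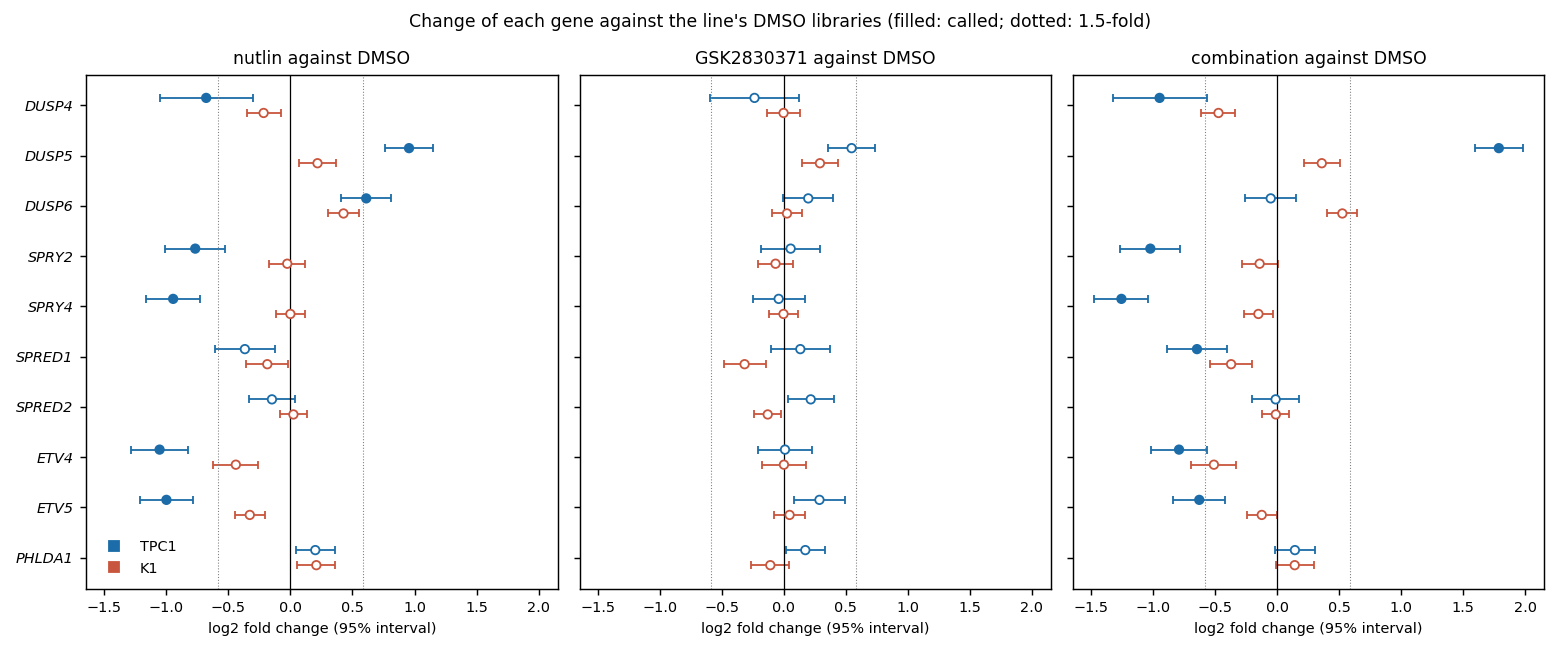
Log2 fold change against DMSO (horizontal axis) of each gene for nutlin, GSK2830371 and the combination, in TPC1 (blue) and K1 (red), with 95% intervals. Filled points are called and dotted lines mark 1.5-fold. Under nutlin *SPRY4* lies at −0.94 in TPC1 and at a 1.00-fold level in K1, and under GSK2830371 no point is filled.

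GSK2830371 alone called none of the 10 genes in either line, by edgeR's quasi-likelihood test or by DESeq2. The share of all genes called was 1.4% in TPC1 and 2.23% in K1. At an unadjusted p under 0.05, 4 of the 10 were above DMSO and 0 below in TPC1, and 1 above and 2 below in K1. *DUSP5* came nearest in TPC1, at 61.9 and 61.3 CPM against 41.7 and 42.7 CPM, which is 1.46-fold (log2 0.55 ± 0.085, adjusted p = 0.017). With scaling by library size alone it was 0.60 and called. In K1 it was at 114 and 122 CPM against 100 and 93.0 CPM, or 1.22-fold (adjusted p = 0.0090). Both GSK2830371 libraries thus held more *DUSP5* than both DMSO libraries in each line. *SPRED1* in K1, at 54.7 and 63.5 CPM against 76.7 and 70.3 CPM, was the other gene to pass the adjusted p (−0.32 ± 0.078, adjusted p = 0.013). Over all alternatives tried that *SPRED1* value ran from −0.43 to 0.033, so its direction was not kept throughout. In TPC1 *SPRED1* had 40.8 and 38.0 CPM against 39.0 and 32.9 CPM, with an interval of −0.11 to 0.37. The GSK2830371 responses of the lines differed for 0 of the 10 genes by edgeR or DESeq2, beside 2.18% of all genes. At an unadjusted p under 0.05, where no share of all genes was taken, 5 differed, all lower in K1. These were *DUSP5*, *SPRED1*, *SPRED2*, *ETV5* and *PHLDA1*, and *SPRED2* (−0.34 ± 0.091, adjusted p = 0.043) alone passed the adjusted p. The *SPRED1* difference ran from −0.57 to 0.022 over the alternatives.

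With both drugs, TPC1 again had 7 of the 10 genes called, now 1 raised and 6 lowered. Of all genes, 22.5% were raised and 21.7% lowered, so that the raised share of the 10 did not exceed the background. *DUSP5* reached 138 and 159 CPM, 3.45-fold the DMSO level, a log2 fold change of 1.79 ± 0.086 (adjusted p = 1.8e-07). It was the only one of the 10 whose TPC1 libraries under both drugs exceeded all the K1 libraries, which held 93.0 to 126 CPM. *SPRY4* was at 17.7 and 16.4 CPM and fell by 1.25 ± 0.096 on the log2 scale (adjusted p = 3.7e-06), and *SPRY2*, at 16.9 and 21.6 CPM, fell by 1.02 ± 0.11 (adjusted p = 2.9e-05). *DUSP4* went to 1.88 and 2.12 CPM and fell by 0.95 ± 0.17 (adjusted p = 0.00087).

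*SPRED1*, at 24.1 and 22.7 CPM, joined the lowered genes (−0.65 ± 0.11, adjusted p = 0.00060). *ETV4* was at 18.5 and 16.3 CPM (−0.79 ± 0.099, adjusted p = 9.75e-05) and *ETV5* at 93.0 and 78.7 CPM (−0.63 ± 0.092, adjusted p = 0.00027), both still lowered against DMSO. The calls of *SPRED1* and *ETV5* lie near the fold threshold: without DMSO replicate 1 *SPRED1* was at −0.50, and without replicate 3 of the combination *ETV5* was at −0.50, with adjusted p values of 0.0022 and 0.0016. Both calls were also lost with the GC and length correction and the replicate block, at −0.46 for *SPRED1* and −0.49 for *ETV5*. *DUSP6* was at 36.2 and 40.9 CPM, overlapping the 36.7 and 41.8 CPM of DMSO, with an interval of −0.26 to 0.15. *SPRED2* (−0.20 to 0.17) and *PHLDA1* (−0.015 to 0.30) also had intervals that span 0.

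K1 under both drugs had 0 of the 10 genes called by edgeR's quasi-likelihood test and 0 by DESeq2, beside 15.7% of all genes. By the adjusted p alone 2 were above DMSO and 4 below, against 21% and 22.2% of all genes, and at an unadjusted p under 0.05 the counts were 2 and 5. *DUSP6* had 119 and 117 CPM against 84.5 and 79.8 CPM, at 1.44-fold (log2 0.53 ± 0.056, adjusted p = 5.2e-06). *DUSP5* was at 121 and 126 CPM, 1.28-fold (adjusted p = 0.000705). *DUSP4*, at 36.1 and 34.2 CPM against 50.3 and 47.2 CPM, had −0.47 ± 0.063, *ETV4* −0.51 ± 0.084, *SPRED1* −0.37 ± 0.078 and *SPRY4* −0.15 ± 0.054. In each of these 6 genes the libraries under both drugs lay apart from those under DMSO.

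Between the lines, the response to both drugs differed for 3 of the 10 genes. K1 minus TPC1 was raised for 2, *SPRY4* (1.08 ± 0.11, adjusted p = 1.2e-06) and *SPRY2* (0.85 ± 0.14, adjusted p = 0.00011), beside 11.9% of all genes, and lowered for 1, *DUSP5* (−1.45 ± 0.12, adjusted p = 7.6e-08), beside 13.8%. Both counts lay near the background. *DUSP6* (0.55 ± 0.12, adjusted p = 0.0013) and *ETV5* (0.48 ± 0.11, adjusted p = 0.0024) passed the adjusted p and stayed under the fold threshold. With scaling by library size alone, which called both of these too, the count was 5. *DUSP6* was also called without DMSO replicate 1 of K1 (0.59), DMSO replicate 1 of TPC1 (0.64) or replicate 3 of the TPC1 combination (0.61), and *ETV5* without replicate 1 of the TPC1 combination (0.598).

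Adding GSK2830371 to nutlin moved the phosphatase genes *DUSP5* and *DUSP6* in opposite directions in TPC1. It raised 1 of the 10, *DUSP5*, from 83.0 and 84.8 CPM to 138 and 159 CPM (0.83 ± 0.084, adjusted p = 0.00024), and lowered 1, *DUSP6*, from 59.2 and 63.5 CPM to 36.2 and 40.9 CPM (−0.66 ± 0.090, adjusted p = 0.0011). Of all genes, 6.46% were raised and 5.66% lowered, so that both counts lay near the background. Without replicate 1 of the combination the change of *DUSP6* was −0.58 (adjusted p = 0.0074), just under the fold threshold. *ETV5* (0.37 ± 0.093, adjusted p = 0.018) and *SPRY4* (−0.31 ± 0.097, adjusted p = 0.044) passed the adjusted p alone, and *SPRY2*, at −0.25, did not (adjusted p = 0.12).

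The interaction compares the combination with the sum of the log2 effects of the single drugs. In TPC1 it was lowered for 1 of the 10 genes, *DUSP6* (−0.86 ± 0.13, adjusted p = 0.0055), beside 3.5% of all genes. Nothing about the 10 genes as a set is read from a count of 1. The sum of the single-drug effects would place *DUSP6* above DMSO, as 0.61 with nutlin and 0.20 with GSK2830371, whereas the combination was at −0.052. For *DUSP5* the interaction was 0.28, with an interval of 0.016 to 0.55 (adjusted p = 0.17). Leaving out any single library kept the count at 1, and over all alternatives tried the *DUSP6* value stayed between −0.95 and −0.78.

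In K1, adding GSK2830371 to nutlin called 0 of the 10 genes by edgeR or DESeq2, beside 2.68% of all genes, and 1 was above and 3 below at an unadjusted p under 0.05. *DUSP4* (−0.26 ± 0.064, adjusted p = 0.020) and *ETV5* (0.20 ± 0.057, adjusted p = 0.034) passed the adjusted p alone. The interaction called 0 by either tool, beside 2.44%, with 1 gene below an unadjusted p of 0.05, *DUSP4* (−0.26 ± 0.090, adjusted p = 0.10). *DUSP6* had 119 and 117 CPM under both drugs against 108 and 113 CPM under nutlin, an increment of 0.098 with an interval of −0.023 to 0.22. *DUSP5* had 121 and 126 CPM against 105 and 120 CPM, with −0.0048 to 0.29.

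That increment differed between the lines for both genes. K1 minus TPC1 was raised for *DUSP6* (0.77 ± 0.12, adjusted p = 0.00074) and lowered for *DUSP5* (−0.68 ± 0.12, adjusted p = 0.0017), 1 of 10 genes in each direction, beside 2.56% of all genes raised and 2.56% lowered. Here too a count of 1 in each direction says nothing about the 10 genes as a set. The *DUSP5* value was −0.58 without K1 nutlin replicate 2, and −0.58 without replicate 3 of the TPC1 combination, in both cases just under the fold threshold.

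**Figure D4:**
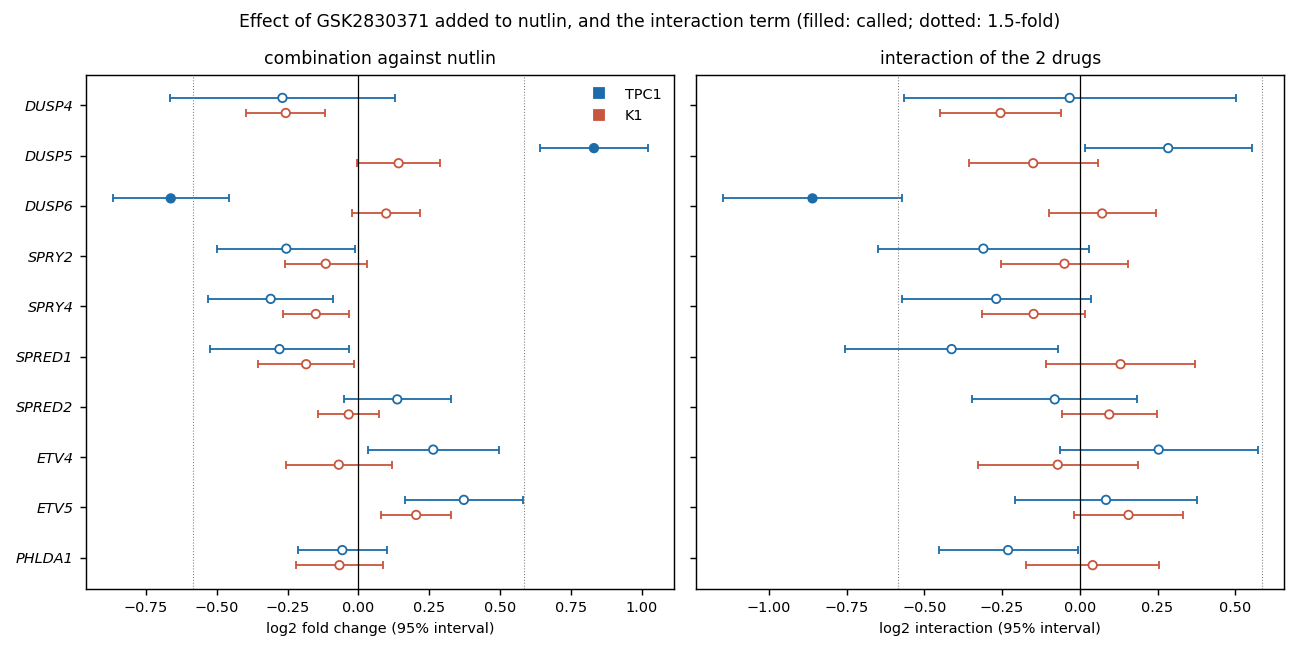
Left, log2 fold change of the combination against nutlin, and right, the interaction of the 2 drugs, for each gene in TPC1 (blue) and K1 (red) with 95% intervals. Filled points are called and dotted lines mark 1.5-fold. In TPC1 *DUSP5* (0.83) and *DUSP6* (−0.66) are filled on the left and *DUSP6* (−0.86) alone on the right, while no K1 point is filled.

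The 10 genes were set beside 15 other ERK output genes. In TPC1 nutlin raised 3 and lowered 6 of these, beside 17.5% and 18% of all genes, with a median of −0.37 on the log2 scale. The combination raised 3 and lowered 6, beside 22.5% and 21.7%, with a median of −0.27, so that the raised share lay near the background in both comparisons. *EPHA2*, a receptor tyrosine kinase gene, rose from 295 and 286 CPM to 690 and 666 CPM with nutlin (1.19 ± 0.081) and by 2.30 ± 0.084 with both drugs. *EMP1*, encoding an epithelial membrane protein, fell by 1.43 ± 0.072 with nutlin and by 2.76 ± 0.076 with both. *FOSL1*, encoding the AP-1 subunit FRA1, fell by 1.27 ± 0.076 with nutlin. *DUSP9*, a further ERK phosphatase gene with at most 3.12 CPM in TPC1, fell by 2.45 ± 0.26 with nutlin and by 3.45 ± 0.29 with both, and *ETV1*, an ETS factor gene like *ETV4* and *ETV5*, fell by 1.69 ± 0.11 with both. The list thus held genes that rose and genes that fell, as the 10 genes did.

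In K1, nutlin raised 1 of the 14 tested genes of that list, *EPHA2* (0.79 ± 0.052), and lowered 0, beside 9.27% of all genes called in either direction. The combination raised 2, *EPHA2* (1.10 ± 0.052) and *EPHA4* (0.79 ± 0.12), and lowered 1, *ETV1* (−0.83 ± 0.13). The share of all genes called in either direction was 15.7%, so both counts lay near the background. GSK2830371 alone lowered 1 of the 15 in TPC1, beside 1.4% of all genes called in either direction. This was the Sprouty gene *SPRY1* (−1.24 ± 0.13), which had 11.2 and 10.6 CPM under DMSO and 4.71 and 4.53 CPM under the drug. When GSK2830371 was added to nutlin, *SPRY1* rose in TPC1 from 8.33 and 6.63 to 18.0 and 18.5 CPM (1.31 ± 0.12), whereas the cyclin D1 gene *CCND1* fell from 731 and 693 to 282 and 283 CPM (−1.33 ± 0.076). The interaction in TPC1 was 2.55 ± 0.18 for *SPRY1*, −1.43 ± 0.11 for *CCND1*, −1.30 ± 0.10 for *EMP1* and −1.17 ± 0.18 for *HMGA2*. In K1 *EGR1*, an immediate early gene, had 8.15 and 11.2 CPM under DMSO and 7.12 and 6.08 CPM under nutlin. It had 8.63 and 6.06 CPM under GSK2830371, and 10.6 and 9.65 CPM under both drugs, within the range of DMSO. It thus rose when GSK2830371 was added to nutlin (0.62 ± 0.17), with an interaction of 1.02 ± 0.24, but not above the DMSO libraries.

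Of 8 other dual specificity phosphatase genes, nutlin raised 6 and lowered 1 in TPC1, beside the same 17.5% and 18% of all genes, with a median of 0.69. The combination raised 5 and lowered 1, beside 22.5% and 21.7%, with a median of 0.96. *DUSP1*, whose product acts mainly on p38 and JNK, went from 52.2 and 57.4 CPM to 112 and 114 CPM with nutlin (1.01 ± 0.084) and to 228 and 213 CPM with both drugs (1.98 ± 0.086). *DUSP14* (1.46 ± 0.10) and *DUSP3* (0.89 ± 0.10) rose with nutlin, and *DUSP2*, at most 1.81 CPM in TPC1, fell by 2.33 ± 0.32. *DUSP16* rose by 1.62 ± 0.095 with both drugs. Where GSK2830371 was added to nutlin, *DUSP1* (0.97 ± 0.084), *DUSP16* (1.02 ± 0.093) and *DUSP8* (0.81 ± 0.20) rose and *DUSP10* fell by 1.20 ± 0.085. The interaction in TPC1 was lowered for *DUSP10* (−0.68 ± 0.12) and *DUSP3* (−0.66 ± 0.15). In K1 nutlin raised 2 of 7 tested and lowered 0, beside 9.27% of all genes called in either direction. The raised genes were *DUSP14* (0.92 ± 0.064) and *DUSP8* (0.81 ± 0.22). The combination raised 3 and lowered 0 in K1, *DUSP8* (1.32 ± 0.20), *DUSP14* (1.25 ± 0.063) and *DUSP1* (0.85 ± 0.065), beside 15.7% of all genes called. GSK2830371 alone raised 1 there, *DUSP1* (0.73 ± 0.065), beside 2.23% of all genes called.

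Of 22 genes of the cascade itself, from *EGFR* to the ERK substrate kinases, nutlin raised 4 and lowered 3 in TPC1, with a median of 0.036, which is near the 17.5% and 18% of all genes. *KSR1*, encoding a scaffold that brings RAF and MEK together, went from 5.97 and 4.69 CPM to 23.1 and 18.3 CPM (1.93 ± 0.18), and *SHC1*, an adaptor (1.10 ± 0.081), and *RPS6KA1*, the kinase RSK1 (1.02 ± 0.080), rose, whereas *MAP2K1*, encoding MEK1, fell by 0.84 ± 0.077. The combination raised 6 and lowered 4 in TPC1, also near its background of 22.5% and 21.7%, among them *KSR1* (2.26 ± 0.18), *SHC1* (1.27 ± 0.081), *RPS6KA1* (1.18 ± 0.080) and *RASA1*, which encodes a GTPase activating protein for RAS (−1.22 ± 0.091). The interaction in TPC1 was lowered for 1, near the 3.5% of all genes. It was *MAPK3*, encoding ERK1 (−0.59 ± 0.13, adjusted p = 0.027), just past the fold threshold, and DESeq2 called 0 of the 22. In K1 nutlin and the combination each called 0 of the 22, by edgeR's quasi-likelihood test and by DESeq2. Of all genes, 9.27% were called in K1 with nutlin and 15.7% with both drugs. At an unadjusted p under 0.05, again with no share of all genes, there were 5 above and 5 below DMSO with nutlin in K1. With both drugs there were 6 above and 7 below. *BRAF* itself was at 10.5 to 18.0 CPM in TPC1 and 11.1 to 14.98 CPM in K1.

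**Figure D5:**
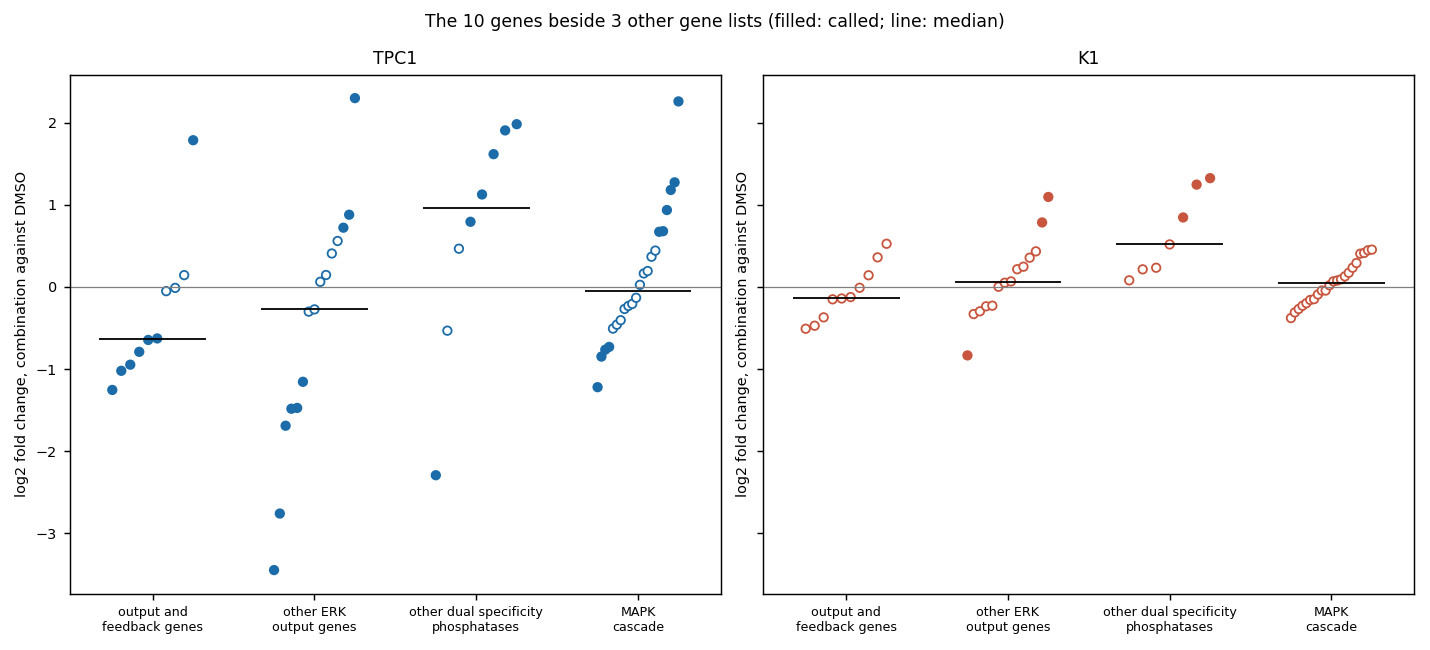
Log2 fold change of the combination against DMSO (vertical axis) for the 10 output and feedback genes, 15 other ERK output genes, 8 other dual specificity phosphatases and 22 genes of the MAPK cascade (horizontal axis), in TPC1 (left) and K1 (right). Each point is a gene, filled where called, and lines mark medians. The TPC1 medians are −0.64, −0.27, 0.96 and −0.054, and those of K1 are −0.13, 0.059, 0.52 and 0.044.

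Under DMSO the other lists did not share the higher level in K1 of the output and feedback genes, by their medians. The median log2 difference of K1 from TPC1 was 0.90 for the output and feedback genes, beside 0.018 over all genes. It was 0.078 for the other output genes, −0.145 for the other dual specificity phosphatases and −0.050 for the cascade. K1 was raised over TPC1 for 5 of the 15 other output genes and lowered for 4, beside 25% and 21.2% of all genes, among them *PLAUR* (1.93 ± 0.090), *LIF* (1.76 ± 0.079) and *SPRY1* (−3.60 ± 0.19). Neither count lay far from the background. *DUSP9*, which is counted among the 4 lowered, and *DUSP2* had 0 to 4 reads in every K1 library, too few for a fold change. Of the other dual specificity phosphatases *DUSP16* was raised in K1 by 0.71 ± 0.093, and of the cascade 0 were raised and 2 lowered, *RPS6KA1* (−1.43 ± 0.086) and *RASA1* (−0.80 ± 0.080).

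Within TPC1 several of the 10 genes varied together. Over its 8 libraries Pearson's r of log2 CPM was 0.96 between *SPRY2* and *SPRY4* and 0.97 between *ETV4* and *ETV5*, while *DUSP5* had −0.92 with *SPRY4* and *DUSP6* had 0.039 with *DUSP5*. In the 8 K1 libraries the same pairs had 0.56, 0.72, −0.60 and 0.60. The Sprouty and ETS factor genes did not form separate groups in TPC1. There *SPRY2* had 0.87 with *ETV4* and 0.83 with *ETV5*, and *SPRY4* had 0.90 and 0.86. In K1 those values were 0.37, 0.14, 0.68 and 0.025. The libraries share the treatments and a sequencing depth that differs between replicates, and these values describe them without a test.

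The genes whose pattern was most like that of *DUSP6* were sought among 11621 genes whose mean reached 1 CPM in each line, by Pearson's r of log2 CPM centred on the line mean over 16 libraries. They were *SEC22B* (0.93), which has near-identical copies in the genome so that its count is uncertain, *FNDC4* (0.92), *PLA2R1* (0.92), *HSD17B4* (0.92) and *PDIA4* (0.92). Within TPC1 r lay between 0.92 and 0.95 and within K1 between 0.91 and 0.96. *PLA2R1*, a phospholipase A2 receptor gene, shows the shape: in TPC1 it had 2.85 and 2.56 CPM under DMSO, 5.50 and 5.48 under nutlin, 2.83 and 2.79 under GSK2830371 and 2.47 and 3.001 under both. In K1 it had 8.63 and 7.73 CPM under DMSO, 12.2 and 11.7 under nutlin, 6.77 and 8.43 under GSK2830371 and 11.2 and 11.4 under both. Its libraries under both drugs thus lay beside those of DMSO in TPC1 and beside those of nutlin in K1.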

How the data were processed

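Strand-specific polyadenylated RNA of TPC1 and K1 cells was sequenced by the authors as single reads of 150 bases, trimmed, aligned to GRCh37 with TopHat2 2.0.13, filtered at a mapping quality of 10 with SAMtools, and counted per gene with HTSeq 0.6.1 by strand. The deposited values are raw counts per gene symbol without normalization, and tool versions are those of the submitters' processing notes. Every sample column was used. In TPC1, 4 columns are numbered 3 where the labels number replicates 1 and 2, and these were used as libraries of their treatment with no sample named.

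Counts were fitted in edgeR 4.0.16 (R 4.3.3) with TMM scaling and the quasi-likelihood test, keeping genes above 0.1 CPM in at least 2 libraries. Each line was fitted over its 8 libraries (15273 genes in TPC1, 15900 in K1) and differences between lines over 16 (16738 genes). Genes are called at a Benjamini-Hochberg adjusted p under 0.05 over all genes and a fold change above 1.5. Values after ± are standard errors of log2 values, unless SD is stated. They were derived from the test, as the absolute log2 value over the square root of the quasi-likelihood F statistic. Intervals are at 95% and rest on these standard errors. TMM factors ran from 0.938 to 1.06. The study describes its replicates in general as biological and independently prepared, and the labels of these libraries add nothing on this, so p-values measure the spread between these libraries. Replicate libraries differed by more than counting noise in each group.

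The members and gene lists were chosen with earlier results of these data known. Named genes are all members, *CDKN1A*, *MDM2*, *RET*, *CCDC6* and *BRAF* as checks, up to 4 called genes of each list and comparison with the largest absolute change, and the 5 genes most like *DUSP6*. Transcript lengths and positions came from the GENCODE annotation on GRCh37 and promoters from RefSeq on GRCh38.p14. Whether replicate numbers pair libraries was checked by correlating log2 replicate differences between treatments across genes: r was 0.44 to 0.59 in TPC1 (12303 genes), so the numbers pair the TPC1 libraries, and −0.32 to 0.33 in K1. Tested on simulated data, the fit recovered 100% of 200 genes changed 2-fold by nutlin, with 0 false calls among 15022 genes in TPC1 and 2 among 15679 in K1. The simulated libraries were independent with 1 common dispersion, and the changed genes had means above 5 CPM. The TPC1 libraries are paired, *DUSP4* in TPC1 lies below that mean, and several changes lie near 1.5-fold. These rates therefore do not measure the reliability of the calls given here. Alternatives were DESeq2 size factors, library size alone, filterByExpr, no filter, DESeq2 1.42.0's Wald test, the compared groups only, a replicate block, a GC and length correction, and leaving out each library. The GC and length correction was fitted with the block in TPC1 and between the lines, and without it in K1.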

Additional observations from a re-analysis of the deposited data

Results flagged for a closer look

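Several responses were flagged because the effect of the same treatment differed between the lines, by the test of that difference in the fit of all 16 libraries (edgeR's quasi-likelihood test, adjusted over 16738 genes). All values are K1 minus TPC1 on the log2 scale, and each line has 2 libraries per treatment. Among the 10 output and feedback genes the nutlin response differed for *DUSP5* (−0.77), *SPRY2* (0.71), *SPRY4* (0.91) and *ETV5* (0.64), and the combination response for *DUSP5* (−1.45), *SPRY2* (0.85) and *SPRY4* (1.08). The step from nutlin to the combination differed for *DUSP5* (−0.68) and *DUSP6* (0.77). For *DUSP6* that step took both TPC1 libraries below both nutlin libraries, whereas both K1 libraries lay above theirs.

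In the other lists the genes with the widest differences were named. For nutlin these were the output genes *FOSL1* (1.16), *EMP1* (1.10) and *LIF* (−0.96), the phosphatase genes *DUSP22* (−0.79), *DUSP3* (−0.75) and *DUSP1* (−0.67), and *KSR1* (−1.60), *SHC1* (−0.76), *RASA1* (0.70) and *MAP2K1* (0.66) of the cascade. For GSK2830371 they were *EPHA4* (0.99) and *SOS2* (−0.67). For the combination they were *EMP1* (2.43), *CCND1* (1.56), *FOSL1* (1.46) and *EPHA2* (−1.23), then *DUSP1* (−1.16), *DUSP16* (−1.13), *DUSP10* (0.74) and *DUSP14* (−0.69), and *KSR1* (−1.84), *SHC1* (−1.01), *RASA1* (0.92) and *RPS6KA1* (−0.79). For the step from nutlin to the combination they were *SPRY1* (−1.53), *EMP1* (1.34), *CCND1* (1.22), *EPHA2* (−0.79), *DUSP10* (1.07) and *DUSP16* (−0.94). *SPRY1* had 18 to 37 reads in the K1 libraries, the lowest depth among these genes.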

How the results depend on the processing

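Of 2740 alternative values of the 10 genes, 2612 kept their direction and their side of the call, 12 lost a call, 18 gained one and 98 changed sign without being called in either fit, and no called value reversed. With scaling by library size alone, the calls with GSK2830371 in TPC1 went from 0 to 1 and the combination response between the lines from 3 to 5. Leaving out each library in turn gave 5 to 7 calls for nutlin in TPC1, 6 to 7 for the combination, 1 to 2 for the combination against nutlin and 1 to 1 for the interaction, 0 to 0 for GSK2830371 and for every K1 comparison, 7 to 7 between the lines under DMSO, and 4 to 5, 0 to 0, 3 to 4 and 1 to 2 for the differences between the lines in the responses to nutlin, GSK2830371, both drugs and the added GSK2830371. A group reduced to 1 library was assumed to vary like the other groups. The replicate block changed no TPC1 or K1 call of the 10 genes within a line (K1 numbers share only a number), and between lines it added *ETV4* to the nutlin response, which made 5. With the GC and length correction and the block, 5 genes were called for the combination in TPC1, without *SPRED1* and *ETV5*, and between the lines *ETV5* lost its call in the nutlin response. The cause of these shifts was not tested. *DUSP4* in TPC1 rests on 67 to 283 reads per library, which limits its precision most.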
